A study of Mus musculus with 2 samples.

Results

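Gene deserts are long stretches of a chromosome without protein-coding genes. Here a desert was every interval of at least 500 kb between neighbouring protein-coding gene bodies of GENCODE M1 on chromosomes 1 to 19 of the mouse genome mm9, and 593 deserts met this rule. A further 7 intervals of that length were left out because more than 10% of their bases were N. The comparison classes were 18330 intergenic intervals under 500 kb and 18949 blocks of merged gene bodies. CTCF binding came from 1 ChIP-seq library of R1/E mouse embryonic stem cells (ESCs) that carried CTCF with a GFP-containing LAP tag at its C-terminus, expressed from a stably integrated BAC in drug-resistant cells sorted for GFP, which kept their own gene. A goat antibody against GFP pulled down the tagged protein, and 1 library of the same line made with goat IgG served as the control. The label of the control also calls it input DNA. Cells were grown with LIF, fixed in 1% formaldehyde, and their chromatin was sheared by sonication to roughly 500 bp. Neither library had a replicate, so every interval below covers counting error or the spread between genomic intervals, and none covers the variation between cultures. The libraries held 8391191 CTCF and 7988889 IgG tags of 35 bp. Of 33788 deposited peak summits, 33226 lay on chromosomes 1 to 19, and 2511 of these lay in deserts.

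CTCF is a zinc finger protein that binds a long, GC-rich motif and is known for insulator function and, together with cohesin, for holding the bases of chromatin loops. Deserts are poor in GC, and many flank genes of development and of the nervous system, where distant enhancers and structural sites can lie far from any promoter. The protein-coding annotation also leaves other genes inside some of them. Long non-coding genes (356 in all) lay in 178 of the 593 deserts, and immunoglobulin or T cell receptor gene segments, which GENCODE does not class as protein-coding, lay in 5.

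The motif used here was a matrix of 19 positions built from 192 CTCF sequences that the study lists, with the consensus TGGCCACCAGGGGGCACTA, searched on both strands. The sequences below, from mm9, are the best matches within 150 bp of the 5 tallest desert summits. They are shown because they are the sites in the deserts that CTCF covered most. Capitals mark the motif, and each line reads 5′ to 3′ on the motif's strand with 20 bases on either side.
Ppp6c to Lrp1b, chr2:39228813-39228871, minus strand: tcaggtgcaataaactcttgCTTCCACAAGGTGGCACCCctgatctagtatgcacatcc
Naf1 to Nat1, chr8:69955486-69955544, plus strand: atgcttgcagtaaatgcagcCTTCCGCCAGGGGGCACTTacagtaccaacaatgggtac
Rps24 to Zmiz1, chr14:25936074-25936132, plus strand: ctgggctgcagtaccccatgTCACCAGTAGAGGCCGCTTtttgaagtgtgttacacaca
Satb1 to Kcnh8, chr17:52788682-52788740, minus strand: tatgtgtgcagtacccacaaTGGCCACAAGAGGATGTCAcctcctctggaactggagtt
Olfm3 to S1pr1, chr3:115364103-115364161, plus strand: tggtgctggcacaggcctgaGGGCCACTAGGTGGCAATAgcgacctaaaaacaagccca
These 5 motifs scored 19.92, 16.33, 14.97, 14.04 and 20.32 bits in the order given. None of them was the consensus.

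The next sequences are the 3 best motifs in deserts that lay more than 10 kb from any summit and had at least 20 IgG tags within 5 kb. They stand beside the first set because they match the matrix better and yet no peak was called there.
Odz3 to 4930555F03Rik, chr8:50104173-50104231, plus strand: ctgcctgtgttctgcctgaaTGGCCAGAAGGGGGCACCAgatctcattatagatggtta
Gm7112 to Ighv1-73, chr12:115888814-115888872, minus strand: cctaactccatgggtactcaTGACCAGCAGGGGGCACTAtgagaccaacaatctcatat
Lingo2 to 1700009N14Rik, chr4:37392466-37392524, plus strand: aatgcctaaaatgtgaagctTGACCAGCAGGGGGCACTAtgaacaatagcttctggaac
They scored 25.59, 25.34 and 25.34 bits. Within 150 bp of the motif they had 1, 3 and 2 CTCF tags and no IgG tag, against 55, 43, 44, 45 and 36 CTCF tags and at most 2 IgG tags within 150 bp of the 5 tallest summits. The 3 motifs were 344, 388 and 494 kb from the nearer gene, and the 5 tallest summits were 49.2 to 343 kb from it.

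CTCF summits were sparse in deserts. The deserts covered 673 Mb without N, 28.2% of the sequence of all the intervals compared, and held 7.57% of the summits. That gave 3.73 summits per Mb (95% Poisson interval 3.59 to 3.88), against 18.95 (18.6 to 19.3) in shorter intergenic intervals and 17.02 (16.8 to 17.3) in gene bodies. A quasi-Poisson fit over the intervals put the density in deserts at 0.209 times that of the other classes together (95% interval from a sandwich error 0.192 to 0.226). Against shorter intergenic intervals the ratio was 0.197 (0.181 to 0.214), and against gene bodies it was 0.219 (0.202 to 0.238). Deserts had the lower density on 19 of 19 chromosomes, with ratios from 0.131 on chromosome 19 to 0.317 on chromosome 13.

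Deserts also had the lower GC content, 39.1% against 42.9% in shorter intergenic intervals and 43.2% in gene bodies. With GC content as a term in the fit the ratio to the other classes rose from 0.209 to 0.386 (0.361 to 0.412), that to shorter intergenic intervals to 0.402 (0.377 to 0.430) and that to gene bodies to 0.391 (0.363 to 0.420). The gap varied with GC content, which a single term does not show. At 37 to 39% GC, which held 317 Mb of desert, deserts had 2.44 summits per Mb and shorter intergenic intervals 3.94. The values were 1.45 and 2.99 under 37%, 4.50 and 7.20 at 39 to 41%, and 10.7 and 38.1 at 45% or more. With the outer 25 kb of every intergenic interval left out, the ratio to shorter intergenic intervals was 0.311 (0.286 to 0.339 from the dispersion between intervals). Their IgG tags outside peaks, which also depend on how much of the sequence can be aligned, were 3.08 per kb, as in shorter intergenic intervals, against 3.45 in gene bodies.

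Density fell steadily with the length of the intergenic interval, and the 500 kb limit lay within this decline. It was 66.2 summits per Mb in intervals under 5 kb, 20.6 in those of 50 to 100 kb and 9.29 in those of 200 to 500 kb. Within the deserts it was 5.49 in the 349 under 1 Mb, 3.33 in the 183 of 1 to 2 Mb and 1.80 in the 61 of 2 Mb or more. Deserts of 2 Mb or more had 0.329 times the density of those under 1 Mb (sandwich interval 0.275 to 0.393), and GC content fell along with it from 40.3% to 37.4%. At the limit itself, the 3 shortest deserts (Prok2 to Rybp, Gria4 to Casp1 and Rpl28-ps4 to Gm7292, 502 kb each) held 5, 0 and 3 summits, and the 3 longest intervals below it (Adra1b to Il12b, Adcy2 to Papd7 and Lrrn1 to Setmar, 495 to 499 kb) held 4, 3 and 2.

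**Figure D1:**
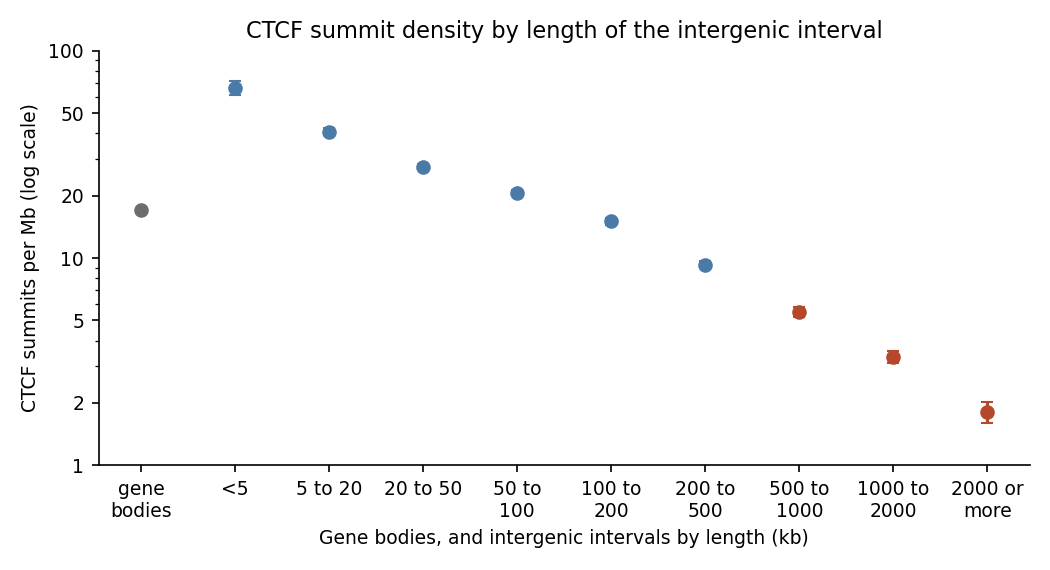
CTCF summits per Mb, on a log scale, in gene bodies (grey), shorter intergenic intervals (blue) and deserts (red) by the length of the interval in kb; bars are 95% Poisson intervals. Density fell in every step of length, from 66.2 under 5 kb to 1.80 in deserts of 2 Mb or more.

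Deserts differed widely among themselves. The middle 50% of the 593 had 1.64 to 6.19 summits per Mb, around a median of 3.39, and the variance of the counts was 4.23 times that of a Poisson count at equal density. No summit was called in 46 deserts and a single one in 77. The densest 59 deserts held 645 summits, 25.7% of those in deserts, in 6.74% of the desert sequence, and 12 deserts reached the density of the other classes together, 17.9 per Mb. Across deserts, density went up with GC content (Spearman's rho 0.58, n = 593 deserts of 1 library) and with the number of motifs per Mb (rho 0.66), as a description of neighbouring intervals that share depth and base composition.

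The 5 densest deserts were all under 1 Mb. Gjb5 to CK137956 on chromosome 4, beside the connexin gene Gjb5, had 16 summits of 8 to 25 tags in 569 kb, or 28.1 per Mb. Adam6a to Gm7112 on chromosome 12 had 17 summits of 7 to 20 tags in 716 kb. It holds 38 immunoglobulin segments, and so it is a desert only of genes classed as protein-coding. Mtx2 to Hnrnpa3 on chromosome 2, next to the metaxin gene Mtx2 beyond which the HoxD cluster lies, had 18 summits of 7 to 32 tags. Pmp22 to Hs3st3b1, beside the gene of a myelin protein, had 16 of 7 to 28 tags, and C130026L21Rik to Cryba4, beside a lens crystallin gene, had 14 of 9 to 20 tags. The GC content of these 5 ran from 39.4% in the immunoglobulin region to 49.7% beside Cryba4. The other 4 deserts with immunoglobulin segments had 6.39 to 10.9 summits per Mb, and leaving all 5 out gave a ratio to the other classes of 0.206 in place of 0.209.

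The 5 longest deserts were among the sparse ones. Celf4 to Pik3c3 on chromosome 18, 4520 kb long between an RNA-binding protein gene and a lipid kinase gene, held 5 summits of 10, 18, 9, 11 and 17 tags. Olfm4 to Pcdh17, beside a protocadherin gene, held 7 in 4421 kb, and 3413 kb of it in a row were without a summit, the longest such stretch in any desert. Cntnap5b to Cdh20, 4930555F03Rik to Aga and Dsel to Cntnap5a held 8, 8 and 4 summits in 3820 to 4283 kb. Cadherin, protocadherin and Cntnap genes, whose products act in cell adhesion, stood at an edge of 3 of these 5. In 102 deserts a stretch of at least 1 Mb was free of summits.

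The 46 deserts without a summit were 502 to 3026 kb long, with a median of 854 kb against 884 kb in the other 547, and their median GC content was 37.9% against 39.1%. They still held 1900 motifs at a motif p of 1e-05, 40.2 per Mb against 48.6 in the deserts with summits. The longest of them was 4931417E11Rik to Gm9008 on chromosome 6, with 0 summits and 103 motifs in 3026 kb. Next came Cox7c to Gm8526, Cdh9 to Cdh10 between a pair of cadherin genes, Cbln2 to Socs6 beside the synaptic organizer gene Cbln2, and Rgs18 to Gm5263, with 1645 to 2432 kb each. Some zeros stood where few tags could be placed. In Gm17391 to Gm10330 on chromosome 12, 1086 kb held 52 CTCF and 26 IgG tags. In all, 7 deserts had under 1 IgG tag per kb, 3 of them without a summit, and without these 7 the ratio to the other classes was 0.2099.

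**Figure D2:**
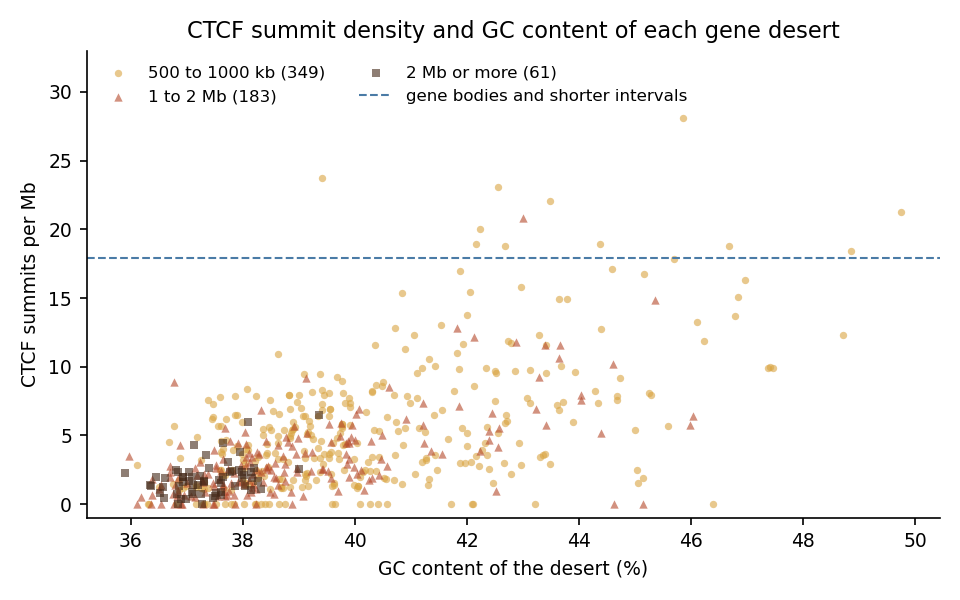
Each point is 1 of the 593 deserts, with its GC content in % on the x axis and its CTCF summits per Mb on the y axis; the marker gives the length class and the dashed line the density of the other classes, 17.9 per Mb. Only 12 deserts reach the line, and the deserts of 2 Mb or more sit at the lower left.

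Summits in deserts were slightly lower than elsewhere. Their median height, the greatest number of overlapping tags in the peak, was 12 tags (95% interval 12 to 12, quartiles 9 and 15), against 13 (13 to 13, quartiles 10 and 17) in each of the other classes. The ratio of geometric means, with errors clustered by interval, was 0.920 (0.908 to 0.933). The gap was wider among tall summits, as 201 desert summits (8.005%) reached 20 tags against 15.5% elsewhere, and 19 (0.757%) reached 30 tags against 2.03%. IgG tags around the summits differed little, with a mean of 1.11 within 150 bp in deserts and 1.08 elsewhere.

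The tallest desert summit, 50 tags, stood in Ppp6c to Lrp1b on chromosome 2, a desert of 1369 kb beside the lipoprotein receptor gene Lrp1b with only 1 more summit, of 14 tags. The next were 40 tags in Naf1 to Nat1, 39 in Rps24 to Zmiz1, 36 in Satb1 to Kcnh8 beside the chromatin organizer gene Satb1, and 34 in Olfm3 to S1pr1 beside a sphingolipid receptor gene. The tallest summit on the other autosomal sequence had 89 tags. In the deserts with the 5 tallest summits the remaining summits had 8 to 18 tags, apart from 1 of 30 tags in Olfm3 to S1pr1. The quartiles over all desert summits were 9 and 15 tags.

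**Figure D3:**
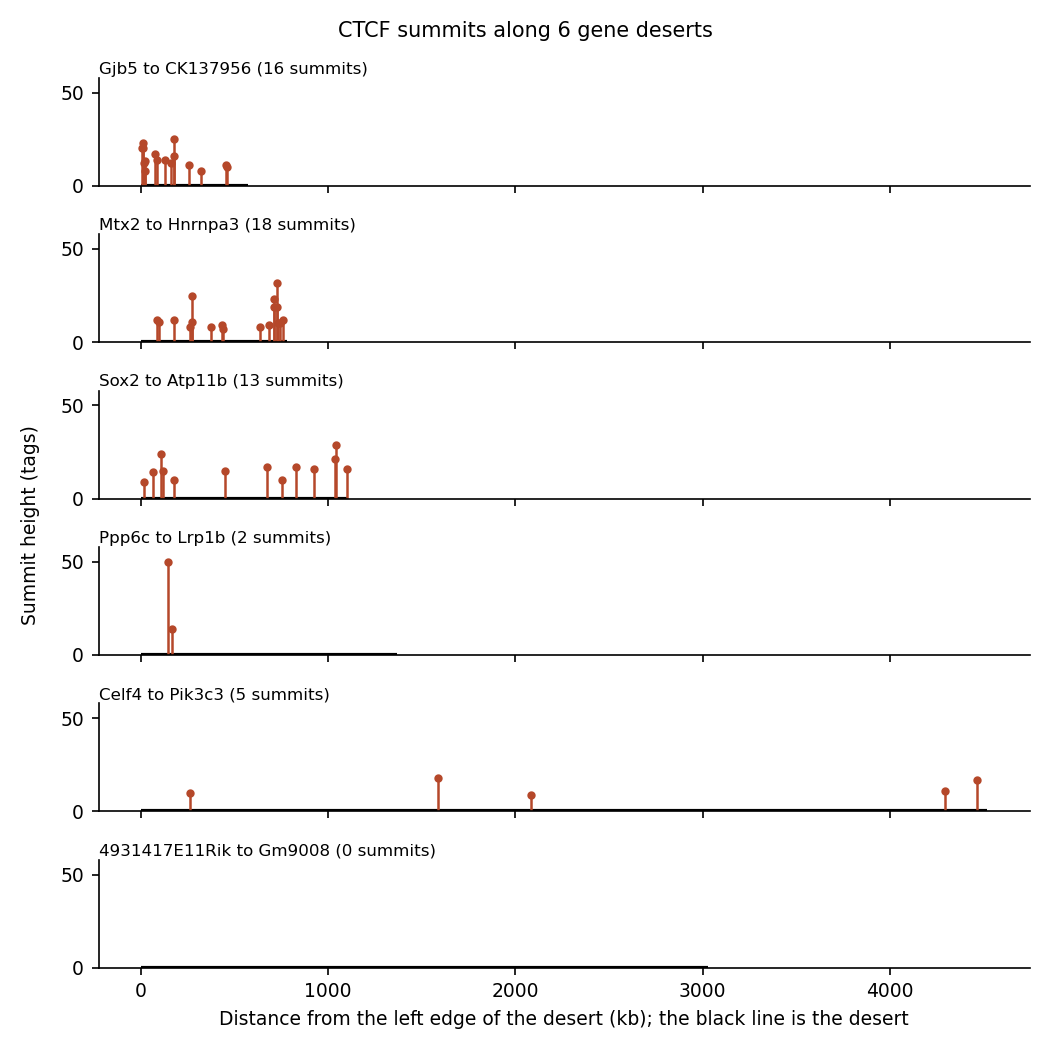
Height of each CTCF summit in tags against its distance in kb from the left edge, in 6 deserts drawn to 1 scale; the black line is the extent of the desert. Gjb5 to CK137956 holds 16 summits in 569 kb, Celf4 to Pik3c3 holds 5 in 4520 kb, and Ppp6c to Lrp1b holds 2, 1 of them of 50 tags.

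Taken over all deserts together, summits were denser toward the flanking genes. The outer 50 kb on either side held 530 summits at 8.94 per Mb (95% Poisson interval 8.20 to 9.74), and the interior held 1981 at 3.23 (3.09 to 3.37). The ratio was 2.77 (sandwich interval clustered by desert 2.48 to 3.10), and 1.996 (1.79 to 2.23) with GC content as a term. GC content was 40.9% in the outermost 10 kb and 37.7% beyond 400 kb, and its part in the difference was not tested. Density went from 12.7 per Mb in the outermost 10 kb to 6.38 at 50 to 100 kb and 1.82 beyond 400 kb. The decline is an average over deserts. With a median of 3 summits per desert, the counts were too low to show whether it held in each one. Longer deserts, which had lower densities, made up more of the interior and of the zone beyond 400 kb. The fit had no term for the single desert, and the part of desert length in the ratio was not tested. In deserts of at least 1 Mb alone the ratio was 3.37. Of the 547 deserts with summits, 294 had the higher density in the outer 50 kb, and 243 had no summit there. Heights changed much less, with a ratio of 1.05 (1.02 to 1.09) between the outer 50 kb and the interior.

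Deserts were sparser than shorter intervals even at the same distance from a gene. In 2010 intergenic intervals of 100 to 500 kb the outermost 10 kb had 19.6 summits per Mb, against 12.7 in deserts, a ratio of 0.649 (0.535 to 0.788). The ratio was 0.510 (0.429 to 0.607) at 25 to 50 kb and 0.607 (0.523 to 0.706) at 100 to 200 kb, and the GC content of these zones was higher in the shorter intervals, at 42.9% against 40.9% in the outermost 10 kb. The genes beside deserts were sparse too. The 1057 gene-body blocks that border a desert had 7.31 summits per Mb against 18.98 in the other blocks, a ratio of 0.385 (0.346 to 0.429), and 0.605 (0.557 to 0.657) with GC content as a term. The bordering blocks were also longer, with a median of 48.9 kb against 16.8 kb, and the part of length in the ratio was not tested.

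The direction of the flanking gene made no detectable difference. At the 583 edges formed by a gene start the outer 50 kb had 8.65 summits per Mb, and at the 603 edges formed by a gene end it had 9.22, a ratio of 0.939 (0.751 to 1.17). Over the 1094 edges of the deserts with summits, the nearest desert summit was a median of 125 kb from the edge, and at 134 edges it was within 10 kb. Desert summits were also far from each other, with a median of 43.8 kb (39.3 to 46.1) to the nearest summit, against 9.48 kb (9.22 to 9.74) in shorter intergenic intervals and 10.996 kb (10.7 to 11.3) in gene bodies.

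**Figure D4:**
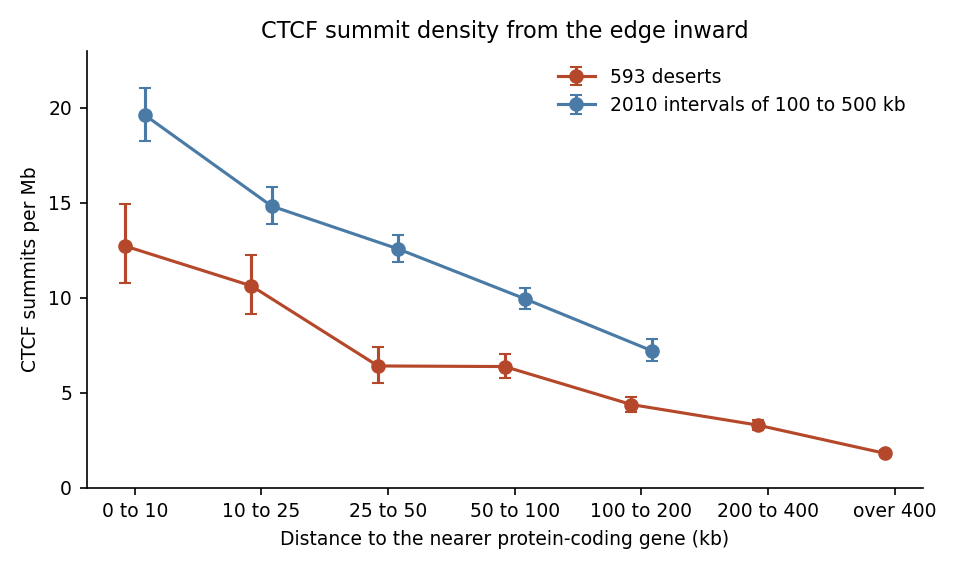
CTCF summits per Mb against the distance in kb to the nearer protein-coding gene, in the 593 deserts (red) and in 2010 intergenic intervals of 100 to 500 kb (blue); bars are 95% Poisson intervals. Both decline inward, and deserts are lower at each of the 5 shared distances.

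Deserts held fewer CTCF motifs, and a smaller share of the motifs they held lay at a summit. At a motif p of 1e-05 (13.06 bits or more) there were 48.0 motifs per Mb in deserts and 124 elsewhere, a ratio of 0.387 (0.371 to 0.403). At the stricter p of 1e-06 (16.95 bits or more) the ratio was 0.269 (0.252 to 0.286). Of the 32298 desert motifs at 1e-05, 1905 had a summit within 150 bp, or 5.90% (95% Wilson interval 5.65 to 6.16), against 11.1% (10.98 to 11.2) elsewhere. At 1e-06 the shares were 16.3% (15.5 to 17.1) and 22.0% (21.7 to 22.3), a ratio of 0.743 (0.697 to 0.791).

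The lower share was seen in each class of motif score. Of motifs with 21 bits or more, 505 of 1316 in deserts lay at a summit, or 38.4% (35.8 to 41.03), against 49.3% (48.1 to 50.5) in shorter intergenic intervals and 48.3% (47.1 to 49.4) in gene bodies, and the ratio of deserts to the rest was 0.787 (0.727 to 0.852). Around these strong motifs IgG tags were similar, with means of 0.832, 0.841 and 0.919 within 150 bp, while CTCF tags averaged 9.10, 11.9 and 11.9. Motif matches that no summit touched still carried CTCF tags. At the 6636 desert motifs of p 1e-06 more than 1 kb from a summit, CTCF tags within 150 bp were 3.18 times the IgG tags (exact 95% interval 3.07 to 3.29, scaled by tags outside peaks), against 0.814 over all desert sequence outside peaks on the same scale, and at motifs elsewhere the ratio was 4.13 (4.08 to 4.18). The ratio over all sequence outside peaks was also higher elsewhere, 0.958 against 0.729 in deserts when scaled by all autosomal tags. The gap between 3.18 and 4.13 was not adjusted for this difference. IgG tags were also fewer at the middle of motifs than in their flanks in each class. The matrix was built from CTCF motif matches listed by the same study, which searched for known motifs around its peak summits. It was therefore not independent of the study's binding data. The state of DNA methylation at these motifs was not measured.

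**Figure D5:**
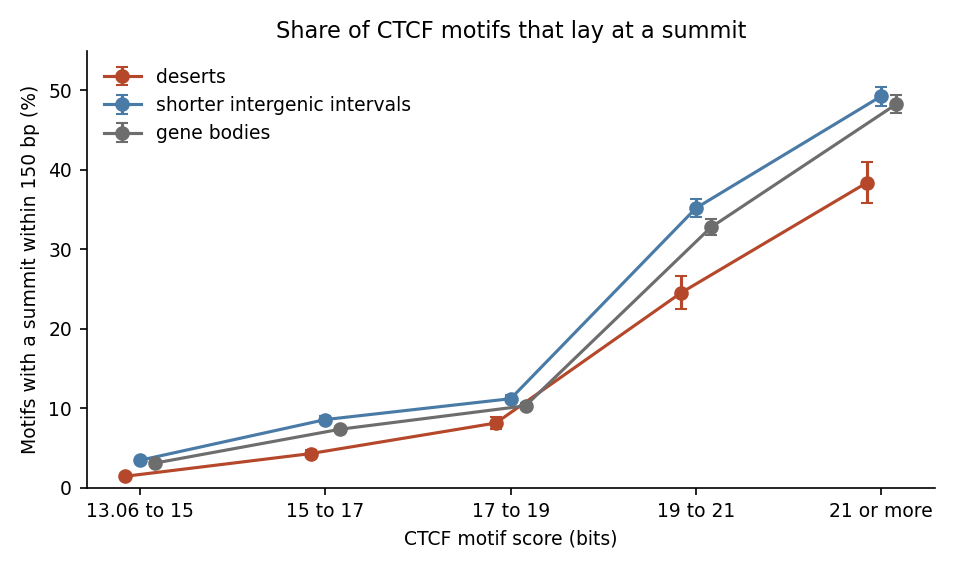
Share in % of CTCF motifs with a summit within 150 bp by motif score in bits, in deserts (red), shorter intergenic intervals (blue) and gene bodies (grey); bars are 95% Wilson intervals. The share rose with score in all 3 classes and was lowest in deserts throughout, with 38.4% against 49.3% and 48.3% at 21 bits or more.

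Summits in deserts had a motif at a share that differed from that of other summits by less than its interval. A motif at 1e-05 lay within 150 bp of 1857 of the 2511 desert summits, 74.0% (72.2 to 75.6), against 73.5% (73.0 to 74.0) of the other summits. Of all 301 bp windows, 1.43% held a motif in deserts and 3.64% elsewhere. The middle of the motif was a median of 45 bp from the summit in deserts and 53 bp in both other classes. Of 1341 pairs of neighbouring desert summits with a motif, 731 (54.5%, 51.8 to 57.2) pointed the same way. Another 286 (21.3%, 19.2 to 23.6) pointed toward each other and 324 (24.2%, 21.9 to 26.5) away from each other. Motif directions in deserts were not compared with those at summits elsewhere. In 401 deserts with at least 2 such summits, and with direction taken along the motif as printed above, the motifs of the outermost pair both pointed into the desert in 74 (18.5%, 15.0 to 22.5) and both out of it in 112 (27.9%, 23.8 to 32.5).

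Outside peaks, deserts had fewer CTCF tags than IgG tags. There were 2.37 CTCF and 3.08 IgG tags per kb of desert outside peaks, a ratio of 0.729 (exact 95% interval 0.727 to 0.730, scaled by all autosomal tags), against 0.958 (0.957 to 0.959) elsewhere. An exact binomial test in each interval with at least 100 tags, scaled by the tags outside peaks, with Benjamini-Hochberg adjustment over all intervals, called CTCF below IgG in 541 of 592 deserts (91.4%). The background was 12.9% of all 19843 intervals tested. It called CTCF above IgG in 12 deserts (2.03%), against 33.8% of all intervals. With such counts the test called small differences, as the median ratio over deserts on this scale was 0.810, with quartiles of 0.776 and 0.847. The median over tested intervals was 1.10 in shorter intergenic intervals and 1.17 in gene bodies. Shares of calls also depend on the tags in each interval. Before the limit on tags, the intervals of the other classes had a median length of 16.6 kb, against 882 kb for deserts.

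This ratio was higher at high GC content in every class. Among intervals under 37% GC it was 0.794 in deserts, 0.827 in shorter intergenic intervals and 0.842 in gene bodies. Among those of 37 to 39% it was 0.786, 0.820 and 0.890, higher than in the class below in gene bodies alone, and among those of 45% or more it was 0.993, 1.37 and 1.33. The part of base composition in the result was not tested. Of the 12 deserts above IgG, 5 were among the 12 densest in summits, and their GC content was 39.4% to 49.7%. The highest ratio, 1.41, was in Gm3944 to Gm5784 on chromosome 12 with 399 CTCF and 300 IgG tags outside peaks, 1 of 3 among the 12 with under 1 IgG tag per kb. Gm4868 to Tmem132c on chromosome 5, with 5055 and 4383 tags outside peaks and 29 summits, the most in any desert, had a ratio of 1.22.

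Deserts beside genes of developmental transcription factors had more summits than other deserts. The list held 330 genes, and 65 deserts had at least 1 of them at an edge. These deserts held 370 summits at 5.84 per Mb, against 3.51 in the rest, a ratio of 1.66 (sandwich interval 1.35 to 2.05). Their GC content was 40.9% against 38.9%. With GC content as a term the ratio was 1.13 (0.953 to 1.33), so that a difference was no longer detectable. Ebf1 to Clint1, beside a B cell factor gene, held 16 summits of up to 23 tags, E130304I02Rik to Tshz3, beside a zinc finger homeobox gene, held 15 of up to 18, and Sox2 to Atp11b held 13.

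Sox2 encodes a core factor of pluripotency, and it lay between a pair of deserts. The desert from Dnajc19 to Sox2, chromosome 3 from 33980244 to 34548926, held 9 summits of 12, 12, 10, 11, 10, 10, 16, 13 and 9 tags, 15.8 per Mb. The one from Sox2 to Atp11b, from 34551384 to 35653055, held 13 summits of 9, 14, 24, 15, 10, 15, 17, 10, 17, 16, 21, 29 and 16 tags, 11.8 per Mb. Both densities were above the third quartile of all deserts, 6.19, and the GC content was 42.97% and 42.88%. Outside the peaks CTCF and IgG tags did not differ detectably in either (adjusted p = 0.122 and 0.257, exact binomial tests with Benjamini-Hochberg adjustment), with ratios of 0.944 and 0.968.

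Deserts beside genes of neuronal adhesion and guidance, such as cadherins, contactins and plexins, went the other way. The 100 deserts with a gene of this list at an edge had 3.02 summits per Mb against 3.97 in the rest, a ratio of 0.760 (0.617 to 0.937), with a GC content of 38.0% against 39.4%. They were also longer, with a median of 1393 kb against 882 kb over all deserts, and the part of length in the ratio was not tested. With GC content as a term the ratio was 1.09 (0.930 to 1.28), so that a difference was no longer detectable. The 3 of them with the most summits were Gm4868 to Tmem132c with 29, 4931429L15Rik to Cadm1 with 18 and Camk1g to Plxna2 with 16. The 40 deserts beside neurotransmitter receptor and ion channel genes did not differ detectably from the rest, at 3.83 against 3.72 per Mb and a ratio of 1.03 (0.7995 to 1.32). Among these Hace1 to Grik2 held 12 summits in 3387 kb, Kcna4 to Mettl15 held 10 in 1794 kb and Trpc7 to Spock1 held 10 in 527 kb. Chemoreceptor genes, although 1463 in number, bordered only 2 deserts, Olfr1505 to Tle4 with 3 summits and Fam173b to Tas2r119 with 2.

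Few of the desert summits lay inside non-coding genes. Long non-coding genes covered 2.45% of the desert sequence and held 77 summits (3.07%), at 4.67 per Mb, 1.26 times (0.940 to 1.69) the density of the other desert sequence. Within 1 kb of a long non-coding gene's start there were 7 desert summits. Short non-coding genes, such as those of miRNAs and small nuclear RNAs, numbered 1145 in 442 deserts and covered 0.134 Mb. They held 6 summits, at 44.8 per Mb (95% Poisson interval 16.5 to 97.6), and 22 desert summits lay within 1 kb of the start of one. The sequence within 1 kb of the starts of long or short non-coding genes was not measured. The counts of 7 and 22 near starts therefore do not show whether summits were scarce or frequent there. Pseudogenes, 582 in all, held 0 summits in 1.54 Mb (95% Poisson interval 0 to 2.40 per Mb). How well tags could be placed in pseudogenes was not tested.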

How the data were processed

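Per the labels, the files are on mm9. The deposited tag files hold 1 row for every aligned 35 bp read, each with a count of 1 and without normalization. For CTCF the authors also deposited peaks from MACS 1.4 (version from the submitters' processing notes), whose score is a p-value relative to IgG on a -log10 scale multiplied by 10, and summits whose signal is the pileup height in tags. The aligner is not given in the sources used here. No position and strand occurred more than 1 time in either library. A shift of 92 bp was applied to every tag (fragment length 184 bp, estimated at 1000 peaks). Depth limits the calls, since the lowest summit had 6 tags.

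Gene bodies were merged, and each summit, tag and motif was assigned to 1 interval of mm9. The motif matrix, with a pseudocount of 1, came from 192 CTCF sequences of the supplementary motif sheet, and of overlapping matches the best was kept. Densities were compared by quasi-Poisson regression over intervals with the log of the length without N as offset, heights by linear regression of log2 height with errors clustered by interval. In simulated data whose spread grew with length the intervals from the Pearson dispersion, the planned error, were too narrow, so the text gives sandwich intervals (added after the data were seen) and the planned ones served for comparison. Shares carry 95% Wilson intervals, medians order-statistic intervals and tag ratios exact binomial intervals. Tests in single intervals compared 2 libraries, not conditions. Analyses ran in Python 3.11.15 with statsmodels 0.14.6 for the fits and scipy 1.17.1 for intervals and tests.

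Deserts were named by their neighbouring protein-coding genes: the 5 longest, the 5 densest, the 5 sparsest, those with the 5 tallest summits, those beside Sox2, the 3 shortest, and the 3 with the most summits for each gene list. Deserts named for their tag ratios or tag counts, and both sets of sequences, were chosen after values were seen, and no sequence of chromosome 18 is shown. The rule for deserts, the gene lists and the tests were chosen with earlier results of these data known. Alternatives varied the desert length, peak score, exposure, GC term, annotation, edge width, scaling, peak margin and motif settings.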

Additional observations from a re-analysis of the deposited data

How the results depend on the processing

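The density ratios of deserts to the rest, to shorter intergenic intervals and to gene bodies, the height ratio and the edge ratio kept their direction and call under every alternative tried for them. The ratio of desert density to the rest of the autosomes, 0.209, ranged from 0.166 with a minimum length of 1 Mb to 0.386 with a GC term, and was 0.188 where all GENCODE genes bounded the intervals and 0.220 with IgG tags as the exposure. Against shorter intergenic intervals it was 0.311 without the outer 25 kb of every interval. The ratio beside developmental transcription factor genes fell from 1.66 to 1.13 with a GC term and then no longer excluded 1, with either error. The ratio beside neuronal adhesion and guidance genes went from 0.760 to 1.09 with a GC term, and its interval no longer excluded 1 either. The CTCF to IgG ratio outside peaks, 0.729, was 0.814 scaled by tags outside peaks, 0.719 with peaks widened by 1 kb and 0.715 in deserts of at least 1 Mb. The share of desert motifs at a summit, 5.90%, was 16.3% at motif p 1e-06 and 3.10% for summits within 50 bp. The share of desert summits with a motif, 74.0%, was 84.3% at motif p 1e-04, 39.7% within 50 bp and 79.6% for scores of at least 100. Deserts called below IgG numbered 527 with widened peaks and 578 scaled by all autosomal tags, in place of 541. No paired analysis was possible because there was 1 library per antibody.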
